A study of Homo sapiens with 9 samples.

Results

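The 43 genes described here encode proteins that make ribosomes in the nucleolus. They comprise 35 nucleolar processing and assembly factors and 8 subunits and factors of RNA polymerase I, and were taken by name from the 25370 gene symbols of the count table. The list was chosen with earlier results of these data known, so its share of calls is a description. All 43 were found and all passed the filter on low counts, which left 15089 symbols for testing. The RNA came from OCI-Ly1, an established human line of diffuse large B-cell lymphoma cells. Cells grown in IMDM with 10% fetal bovine serum received the solvent DMSO, or JIB-04 at 150 nM or 500 nM, for 48 h, with 3 libraries in each group and no other difference in genotype or agent stated. JIB-04 is a compound that inhibits histone demethylases with a Jumonji domain. Total RNA was depleted of ribosomal RNA before sequencing, so the rRNA product of polymerase I was not read here, and the pre-rRNA gene RNA45S5 was listed with 0 counts in all 9 libraries. Separate cultures are not stated for the libraries of a group, and p-values therefore reflect only how these libraries vary, possibly for technical reasons.

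RNA polymerase I transcribes the tandem ribosomal DNA repeats into a long precursor RNA. Its large subunits POLR1A and POLR1B form the catalytic centre, POLR1C and POLR1D are shared with RNA polymerase III, UBTF and the selectivity factor complex that holds TAF1D bind the rDNA promoter, and RRN3 brings the polymerase to it. Small nucleolar ribonucleoproteins then modify the precursor. Box C/D particles, with fibrillarin, methylate riboses, and box H/ACA particles, with dyskerin, convert uridines to pseudouridine. Processome and assembly factors cleave and fold the RNA into the small and large ribosomal subunits. Fast-growing lymphoma cells make many ribosomes, and many of these genes are known targets of MYC, which binds the E-box sequence CACGTG.

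The libraries held 28476845 to 57198613 counts, and DMSO replicate 2 was the shallowest and stood apart on the second principal component (9.32% of the variance). The first component (59.4%) separated the 500 nM libraries from the rest. The B-cell markers MS4A1, CD79A, CD79B, CD22 and PAX5 were detected in every library. At 500 nM relative to DMSO MS4A1, CD79B and CD22 fell, PAX5 rose, and CD79A was not called. The 4 T-cell markers summed to 17.4 to 19.4 CPM (counts scaled to library size) with 500 nM and 33.7 to 38.9 CPM with DMSO, and 3 of them fell. The 4 myeloid markers summed to 0.691 to 1.53 CPM with 500 nM and 1.44 to 1.76 CPM with DMSO, and MPO, a defining marker, was at 0 in all libraries. Over all tested genes 25.6% fell and 26.3% rose at 500 nM. The part of these marker levels in the results was not tested. In bulk RNA, fewer cells of a type and less RNA per cell cannot be told apart.

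E-boxes were found at the start of many processing genes. RefSeq promoter windows (build GRCh38.p14, 250 bases before to 50 after the gene start) were matched for 35 of the 43 genes, 28 processing factors and 7 polymerase I genes, and each was searched on both strands for an E-box, CACGTG, for the Sp1-type GC-box, GGGCGG, and for an ETS-type motif, CCGGAAG. An E-box was present for 16 of 28 processing factors (57.1%) and for 0 of 7 polymerase I genes, against 8.77% of all 27305 RefSeq genes with a window and 10.7% of the 15546 genes of the count table with one. With so few polymerase I genes, 0 of 7 cannot be told apart from a share of 10.7%. The GC-box was present for 22 of 28 processing factors (78.6%), 5 of 7 polymerase I genes (71.4%), 48.3% of all genes and 62.5% of those in the count table. The ETS-type motif was present for 10 of 28 processing factors (35.7%), 4 of 7 polymerase I genes (57.1%), 12.2% of all genes and 15.8% of those in the count table. The 3 motifs were searched separately, so matches may share end bases. A match describes the letters in the window only, and a missing match says nothing of what binds there.

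The sequences below are examples of where the E-box lies in 7 of the 16 processing genes that have one. They are not ranked by the size or certainty of the change. Each is 30 bases along the gene's strand, 5′ to 3′, with the E-box in capitals and its first base counted from the gene start, where negative positions are upstream.
FBL, minus strand, chr19:39846356-39846385, position 7: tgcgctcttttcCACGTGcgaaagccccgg
GNL3, plus strand, chr3:52686026-52686055, position 7: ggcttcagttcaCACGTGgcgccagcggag
GNL2, minus strand, chr1:37595917-37595946, position 4: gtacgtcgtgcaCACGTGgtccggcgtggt
NOP14, minus strand, chr4:2963374-2963403, position 16: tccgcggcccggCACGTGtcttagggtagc
UTP20, plus strand, chr12:101280083-101280112, position -10: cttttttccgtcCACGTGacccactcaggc
WDR43, plus strand, chr2:28894658-28894687, position 4: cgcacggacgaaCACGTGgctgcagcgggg
RCL1, plus strand, chr9:4792936-4792965, position 5: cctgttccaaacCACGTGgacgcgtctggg
The 7 E-boxes shown lie within 16 bases of the gene start. Those of some other members lie further out. E-boxes start at positions 28 to 43 in MYBBP1A, BYSL, GAR1, NOP2 and EBNA1BP2, and NOP10, UTP18 and EBNA1BP2 also have one upstream, at -170, -89 and -237.

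The 250 bases upstream of NOP10, a box H/ACA protein, and of POLR1B, the second-largest polymerase I subunit, are shown to set a window with E-boxes beside a window without them. Both are along the gene's strand, with E-boxes and ETS-type motifs in capitals.
NOP10, minus strand, chr15:34343137-34343386: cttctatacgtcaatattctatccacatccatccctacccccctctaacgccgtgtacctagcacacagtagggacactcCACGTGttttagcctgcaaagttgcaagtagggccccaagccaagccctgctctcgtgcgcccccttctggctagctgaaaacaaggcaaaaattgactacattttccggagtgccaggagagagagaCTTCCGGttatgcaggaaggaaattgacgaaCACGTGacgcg
POLR1B, plus strand, chr2:112542215-112542464: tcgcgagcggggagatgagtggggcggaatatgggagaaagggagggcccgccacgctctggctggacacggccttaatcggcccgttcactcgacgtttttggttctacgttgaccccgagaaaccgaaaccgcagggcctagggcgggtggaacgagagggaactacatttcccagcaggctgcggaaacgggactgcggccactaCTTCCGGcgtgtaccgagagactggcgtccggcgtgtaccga
NOP10 has E-boxes at positions -170 and -11 and an ETS-type motif at -42. POLR1B has no E-box in either of its windows, and in the window shown the ETS-type motif is at position -42 as well.

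After 500 nM JIB-04 most of these genes fell. Of the 43, 36 fell and 0 rose relative to DMSO (edgeR quasi-likelihood test, adjusted p under 0.05). Across all 15089 tested genes 52.0% were called, 25.6% lower and 26.3% higher, and among the 9508 tested genes whose mean level lies within the range of the 43, 33.4% fell. The processing factors fell in 32 of 35 cases with a median log2 change of -0.36, and the polymerase I genes in 4 of 8 cases with a median of -0.27, while the median of all tested genes was 0.01. With so few polymerase I genes, 4 of 8 cannot be told apart from a share of 33.4%. The 500 nM libraries all lay below the DMSO libraries for 37 genes, and that pattern was found for 29.0% of all tested genes. Of the 7 genes not called, POLR1C, POLR1D, POLR1E and RRN3 belong to polymerase I, and RRP12, PPAN and WDR74 are processing factors. Of the 36 calls, 28 held in every alternative processing tried, and those of NOLC1, MYBBP1A, NOP10, DKC1, UTP6, UTP18, RRP9 and RCL1 were each lost in at least 1. Scaling by total counts left 29 lower and called 3 higher, RRN3, RRP12 and WDR74. DESeq2 and limma-voom also called 36 lower and 0 higher, and 1 gene, RRN3, had an unadjusted p under 0.05 without being called.

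**Figure D1:**
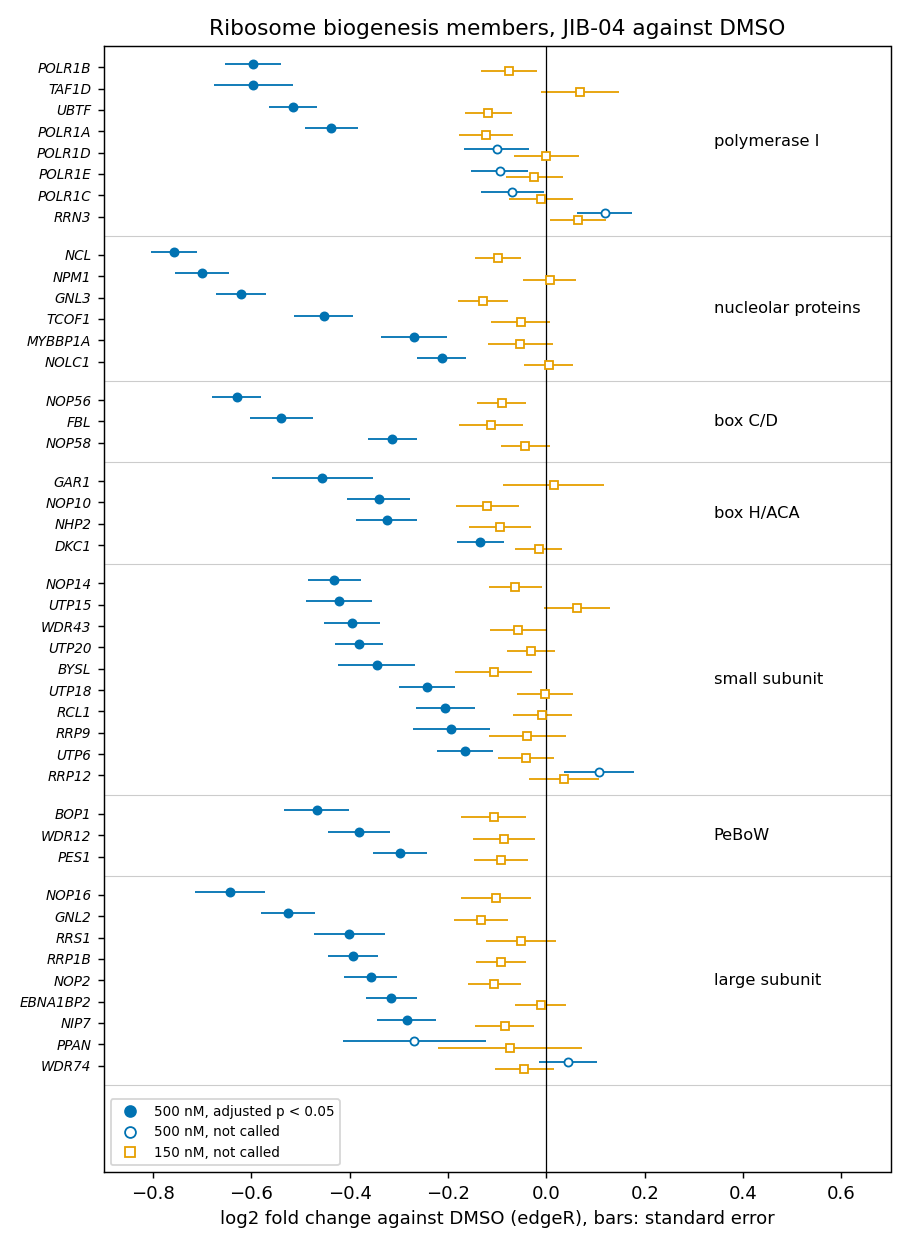
Log2 fold change of each of the 43 genes against DMSO (x axis; bars, standard error) by role. Filled circles are 500 nM JIB-04 with adjusted p under 0.05, open circles 500 nM not called, and squares 150 nM, none called; NCL lies furthest left at -0.76 and RRN3 furthest right at 0.12 for 500 nM.

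Of the 8 polymerase I genes, the catalytic subunits POLR1A and POLR1B and the promoter factors UBTF and TAF1D fell. POLR1B, the second-largest subunit, had 122, 122 and 119 CPM with DMSO, 113, 111 and 120.4 CPM with 150 nM and 82.7, 79.03 and 77.7 CPM with 500 nM JIB-04. The 500 nM libraries lay below all others, and the log2 change was -0.60 ± 0.06 (SE; edgeR adjusted p = 9.28e-10). UBTF, the factor that binds and opens rDNA repeats, had 292, 289 and 278 CPM with DMSO, 265, 261 and 266 CPM with 150 nM and 204, 201 and 196 CPM with 500 nM JIB-04. Its 3 groups did not overlap, and its log2 change at 500 nM was -0.52 ± 0.05 (edgeR adjusted p = 5.66e-10).

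POLR1A, the largest and catalytic subunit, had 164, 151 and 153 CPM with DMSO, 149, 139 and 143 CPM with 150 nM and 114, 118 and 115 CPM with 500 nM JIB-04. The 3 groups again did not overlap, and the log2 change at 500 nM was -0.44 ± 0.05 (edgeR adjusted p = 1.06e-07). TAF1D, a subunit of the selectivity factor complex, had 55.01, 68.95 and 65.4 CPM with DMSO, 60.5, 68.8 and 69.1 CPM with 150 nM and 43.5, 42.99 and 38.5 CPM with 500 nM JIB-04. It was low in every 500 nM library, while the DMSO and 150 nM libraries overlapped, and the log2 change at 500 nM was -0.60 ± 0.08 (edgeR adjusted p = 4.16e-07).

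The other polymerase I genes did not pass the test. POLR1C, shared with polymerase III, had 63.4, 59.6 and 58.02 CPM with DMSO, 59.9, 58.4 and 61.5 CPM with 150 nM and 55.9, 59.3 and 57.3 CPM with 500 nM JIB-04, a log2 change at 500 nM of -0.07 ± 0.06 (edgeR adjusted p = 0.384). The libraries of the groups overlapped. POLR1D, also shared with polymerase III, had 66.6, 62.2 and 66.5 CPM with DMSO, 65.5, 63.8 and 66.04 CPM with 150 nM and 65.7, 59.4 and 57.05 CPM with 500 nM JIB-04, with overlapping libraries and a log2 change of -0.10 ± 0.07 (edgeR adjusted p = 0.207). POLR1E, a subunit of a peripheral heterodimer of the enzyme, had 105, 111 and 106 CPM with DMSO, 105, 103 and 108 CPM with 150 nM and 103, 94.3 and 104 CPM with 500 nM JIB-04. Its 500 nM libraries all lay below its DMSO libraries by a small margin, with a log2 change of -0.09 ± 0.06 (edgeR adjusted p = 0.172). With scaling by total counts in place of TMM, which moves the median of all tested genes to 0.15, the 3 changes took the other sign, at 0.07, 0.04 and 0.04, and still did not pass.

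RRN3, the factor that couples the polymerase to the promoter, was the only one of the 8 with a higher mean at 500 nM. It had 108, 102 and 111 CPM with DMSO, 108, 116 and 112 CPM with 150 nM and 119, 113 and 116 CPM with 500 nM JIB-04. The 500 nM libraries all exceeded the DMSO libraries by a small margin, but the log2 change of 0.12 ± 0.06 did not pass (edgeR adjusted p = 0.0804). It did pass, higher, in a fit of only the 6 libraries compared (0.13, edgeR adjusted p = 0.0487), with the GC trend removed (0.15, adjusted p = 0.00358) and with scaling by total counts (0.26). Pseudogene copies can share its reads, and of these RRN3P1 fell (-0.23, adjusted p = 0.017), RRN3P2 rose (0.51, adjusted p = 0.000156) and RRN3P3 was not called (adjusted p = 0.507), in edgeR.

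**Figure D2:**
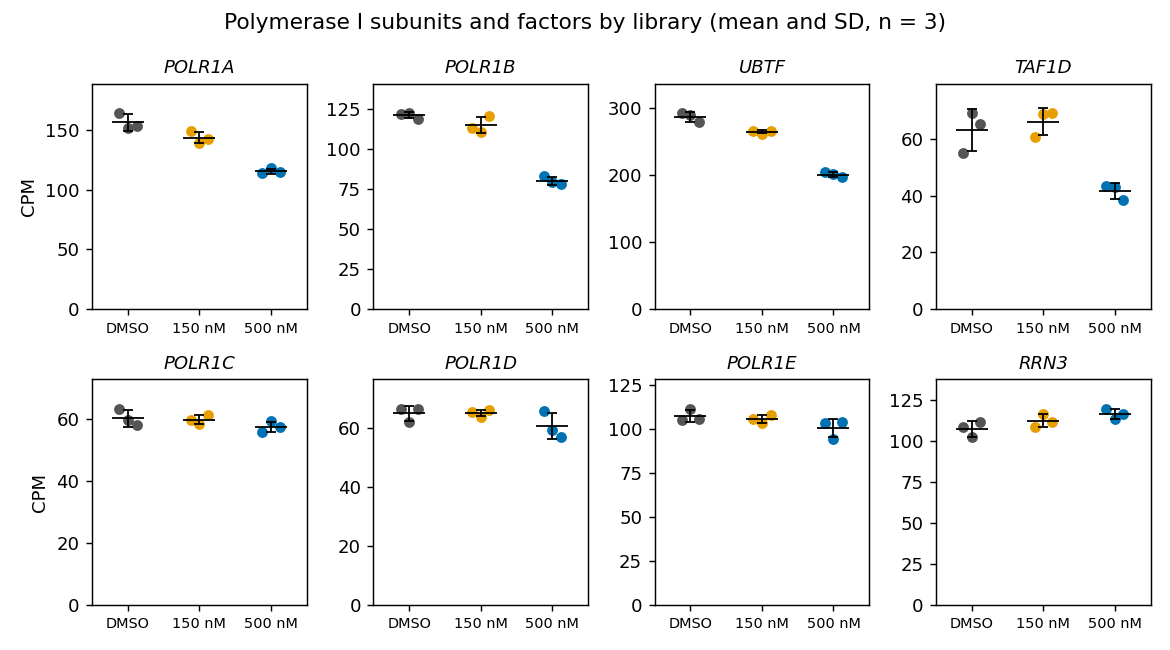
CPM (y axis, from 0) of the 8 polymerase I genes by library at DMSO, 150 nM and 500 nM JIB-04, with mean and SD of 3 libraries. POLR1A, POLR1B, UBTF and TAF1D are lowest at 500 nM in every library, while none of POLR1C, POLR1D, POLR1E and RRN3 passed the test.

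Ratios of raw counts within a library are free of scaling between libraries, and set genes that fell against genes that did not pass. The 3 pairs were chosen after the values were seen. POLR1A counts were 2.034, 1.984 and 1.999 times those of POLR1C in the 500 nM libraries and 2.59, 2.54 and 2.64 times in the DMSO libraries. All 500 nM ratios lay below all DMSO ratios. The ratio of POLR1B to POLR1C averaged 1.39 ± 0.08 with 500 nM and 2.005 ± 0.074 with DMSO, and the ratio of UBTF to RRN3 averaged 1.72 ± 0.05 and 2.68 ± 0.17 in those groups (SD, n = 3 each). With 150 nM the means of the 3 ratios were 2.39 ± 0.08, 1.91 ± 0.04 and 2.36 ± 0.10. As the pairs were picked from genes that fell and genes that did not pass, the ratios are a description with no test.

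**Figure D3:**
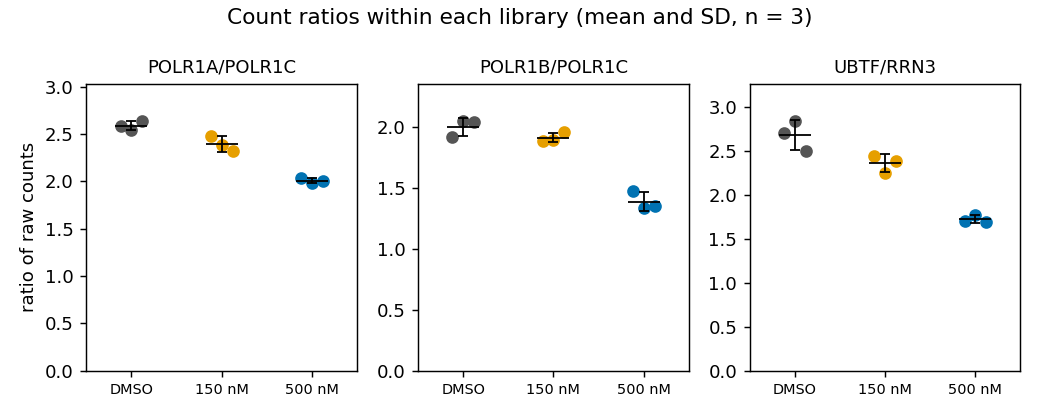
Ratio of raw counts (y axis, from 0) for 3 gene pairs in each library at DMSO, 150 nM and 500 nM JIB-04, with mean and SD of 3 libraries. All 500 nM points lie below all DMSO points in each pair, as for UBTF over RRN3, with means of 1.72 at 500 nM and 2.68 at DMSO.

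All 6 genes grouped as nucleolar proteins fell at 500 nM, with a median log2 change of -0.54, where 25.6% of all tested genes fell. Nucleolin (NCL), an RNA-binding protein of the nucleolus, had 1929, 2026 and 2067 CPM with DMSO, 1855, 1813 and 1956 CPM with 150 nM and 1238, 1193 and 1133 CPM with 500 nM JIB-04. Each 500 nM library was well below every other, and the log2 change was -0.76 ± 0.05 (edgeR adjusted p = 1.04e-13). Nucleophosmin (NPM1), a histone and ribosome chaperone whose processed pseudogenes can share its reads, had 1983, 2139 and 2266 CPM with DMSO, 1985, 2097 and 2334 CPM with 150 nM and 1366, 1299.9 and 1264 CPM with 500 nM JIB-04. DMSO and 150 nM overlapped and 500 nM did not overlap either, with a log2 change of -0.70 ± 0.05 (edgeR adjusted p = 2.78e-11). GNL3 (nucleostemin), a GTP-binding nucleolar protein of proliferating cells, had 336, 342 and 357 CPM with DMSO, 299.8, 312 and 336 CPM with 150 nM and 228, 222 and 222 CPM with 500 nM JIB-04, with a log2 change of -0.62 ± 0.05 (edgeR adjusted p = 4.17e-11). Its 3 groups did not overlap, although DMSO and 150 nM came close. TCOF1 (treacle), which works with UBTF at rDNA, the transcriptional co-regulator MYBBP1A and NOLC1, a chaperone of snoRNPs, also fell, with log2 changes of -0.45 ± 0.06, -0.27 ± 0.07 and -0.21 ± 0.05 (edgeR adjusted p = 3.18e-07, 0.00125 and 0.000744).

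Both kinds of snoRNP core fell. All 3 box C/D proteins fell at 500 nM, where 25.6% of all tested genes fell. NOP56, a scaffold that pairs with NOP58, had 415, 408 and 399 CPM with DMSO, 389, 357 and 401 CPM with 150 nM and 268, 260.1 and 262 CPM with 500 nM JIB-04. Each 500 nM library was below every other, and the log2 change was -0.63 ± 0.05 (edgeR adjusted p = 2.14e-11). FBL (fibrillarin), the methyltransferase, had 163, 177 and 150.2 CPM with DMSO, 164, 148 and 141 CPM with 150 nM and 110.2, 119 and 108 CPM with 500 nM JIB-04, with 500 nM below the rest and a log2 change of -0.54 ± 0.06 (edgeR adjusted p = 6.09e-08). NOP58, the partner of NOP56, had 293, 315 and 309 CPM with DMSO, 289, 298 and 303 CPM with 150 nM and 258, 244 and 236 CPM with 500 nM JIB-04 and also fell (log2 change -0.31 ± 0.05, edgeR adjusted p = 7e-06).

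All 4 box H/ACA proteins also fell at 500 nM, where 25.6% of all tested genes fell. GAR1, a small core protein of the particle, had 19.8, 24.1 and 19.7 CPM with DMSO, 20.7, 23.8 and 19.4 CPM with 150 nM and 15.2, 16.8 and 14.3 CPM with 500 nM JIB-04, with a log2 change of -0.46 ± 0.10 (edgeR adjusted p = 0.000478). NOP10, the smallest core protein, had 75.3, 80.8 and 80.02 CPM with DMSO, 74.1, 67.3 and 75.9 CPM with 150 nM and 62.3, 61.4 and 62.6 CPM with 500 nM JIB-04, with a log2 change of -0.34 ± 0.06 (edgeR adjusted p = 5.18e-05). The 500 nM libraries of both lay below all others, but NOP10 did not pass with the length trend removed (-0.07, adjusted p = 0.352). NHP2, which binds the RNA beside dyskerin, had 148, 161 and 138 CPM with DMSO, 146, 138 and 134 CPM with 150 nM and 119, 127 and 111 CPM with 500 nM JIB-04, with a log2 change of -0.32 ± 0.06 (edgeR adjusted p = 7.59e-05). DKC1 (dyskerin), the pseudouridine synthase, had 276, 285 and 275 CPM with DMSO, 273, 272 and 282 CPM with 150 nM and 259, 248 and 255 CPM with 500 nM JIB-04 and a log2 change of -0.13 ± 0.05 (edgeR adjusted p = 0.0198). That call was lost without DMSO replicate 2, 500 nM replicate 2 or 500 nM replicate 3, and the change was 0.0054 under total-count scaling. Per kilobase of the longest coding transcript (GENCODE v29), the levels at 500 nM against DMSO were 138 against 172 CPM per kb for NHP2, 112 against 142 for NOP10, 82.5 against 90.5 for DKC1 and 12.6 against 17.3 for GAR1, so GAR1 was the least abundant of the 4.

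Small-subunit processome factors fell in 9 of 10 cases, with a median log2 change of -0.29, where 25.6% of all tested genes fell. NOP14, needed for maturation of the small-subunit rRNA, had 174, 176 and 182 CPM with DMSO, 171, 165 and 173 CPM with 150 nM and 139, 132 and 124 CPM with 500 nM JIB-04. No library of 500 nM overlapped another group, and the log2 change was -0.43 ± 0.05 (edgeR adjusted p = 1.24e-07). UTP20, a large helical processome protein, had 222, 221 and 226 CPM with DMSO, 213, 216 and 225 CPM with 150 nM and 174, 169.8 and 169.6 CPM with 500 nM JIB-04, with a log2 change of -0.38 ± 0.05 (edgeR adjusted p = 2.08e-07), and WDR43, a subcomplex member of the processome, had 281, 288 and 299.9 CPM with DMSO, 256, 273 and 306 CPM with 150 nM and 231, 218 and 212 CPM with 500 nM JIB-04, with a log2 change of -0.40 ± 0.06 (edgeR adjusted p = 1.59e-06). The 500 nM libraries of both lay below the rest. UTP15, BYSL, UTP18, RCL1, RRP9 and UTP6 fell as well, with log2 changes of -0.42, -0.34, -0.24, -0.21, -0.19 and -0.17, and edgeR adjusted p-values up to 0.0396. RRP9 did not pass when DMSO replicate 1 (-0.12), DMSO replicate 2 (-0.21), 500 nM replicate 1 (-0.16) or 500 nM replicate 3 (-0.19) was left out. UTP6 did not pass when DMSO replicate 2 (-0.14), 500 nM replicate 2 (-0.15) or 500 nM replicate 3 (-0.13) was left out. RRP12, which takes part in export and late maturation, was not called: it had 50.2, 45.9 and 47.2 CPM with DMSO, 51.8, 47.6 and 47.4 CPM with 150 nM and 48.4, 55.1 and 51.1 CPM with 500 nM JIB-04, a log2 change of 0.11 ± 0.07 (edgeR adjusted p = 0.212). An antisense gene, NOP14-AS1, overlaps NOP14, and how strand was treated is unknown here; it was not called (adjusted p = 0.116).

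The PeBoW complex, made of PES1, BOP1 and WDR12, is required for maturation of the large-subunit rRNA. All 3 genes fell at 500 nM, where 25.6% of all tested genes fell. BOP1 had 216, 190.0 and 186 CPM with DMSO, 200.4, 176 and 173 CPM with 150 nM and 136, 155 and 137 CPM with 500 nM JIB-04, with 500 nM below all others and a log2 change of -0.47 ± 0.07 (edgeR adjusted p = 1.4e-06). WDR12 had 103, 101 and 98.4 CPM with DMSO, 90.2, 91.5 and 103 CPM with 150 nM and 79.7, 73.3 and 79.2 CPM with 500 nM JIB-04, with a log2 change of -0.38 ± 0.06 (edgeR adjusted p = 9.86e-06). PES1 had 177, 161 and 161 CPM with DMSO, 164, 149 and 154 CPM with 150 nM and 132, 138 and 136 CPM with 500 nM JIB-04, with a log2 change of -0.30 ± 0.06 (edgeR adjusted p = 5.48e-05). In each, the 500 nM libraries did not overlap the others.

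Of the other 9 large-subunit factors 7 fell at 500 nM, where 25.6% of all tested genes fell. NOP16, a nucleolar protein of early large-subunit particles, had 82.6, 75.5 and 71.3 CPM with DMSO, 77.4, 69.2 and 67.1 CPM with 150 nM and 49.5, 50.9 and 46.7 CPM with 500 nM JIB-04, with a log2 change of -0.64 ± 0.07 (edgeR adjusted p = 1.32e-08). GNL2, a GTPase of large-subunit assembly and export, had 205, 221 and 222 CPM with DMSO, 197, 189 and 205 CPM with 150 nM and 160.1, 143 and 147 CPM with 500 nM JIB-04, with a log2 change of -0.53 ± 0.06 (edgeR adjusted p = 6.03e-09). RRP1B, a nucleolar protein related to yeast Rrp1, had 247, 260.0 and 237 CPM with DMSO, 233, 230.3 and 234 CPM with 150 nM and 185, 193 and 188 CPM with 500 nM JIB-04, with a log2 change of -0.39 ± 0.05 (edgeR adjusted p = 1.76e-07). None of these 500 nM libraries overlapped another group. RRS1, the rRNA methyltransferase NOP2, EBNA1BP2 and NIP7 fell too, with log2 changes of -0.40, -0.36, -0.32 and -0.28. WDR74, a factor of nucleolar large-subunit maturation, was not called, with 103, 94.5 and 97.5 CPM with DMSO, 97.1, 89.6 and 99.4 CPM with 150 nM and 103, 103 and 98.1 CPM with 500 nM JIB-04 (log2 change 0.04 ± 0.06, edgeR adjusted p = 0.558). PPAN, the lowest of the 43 with 9.67, 6.67 and 8.17 CPM with DMSO, 8.56, 8.36 and 6.43 CPM with 150 nM and 7.37, 6.15 and 6.93 CPM with 500 nM JIB-04, had a log2 change of -0.27 ± 0.14 (edgeR adjusted p = 0.123), and was called lower without DMSO replicate 2 (-0.39, adjusted p = 0.0357) and with the GC trend removed (-0.42, adjusted p = 0.00656).

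**Figure D4:**
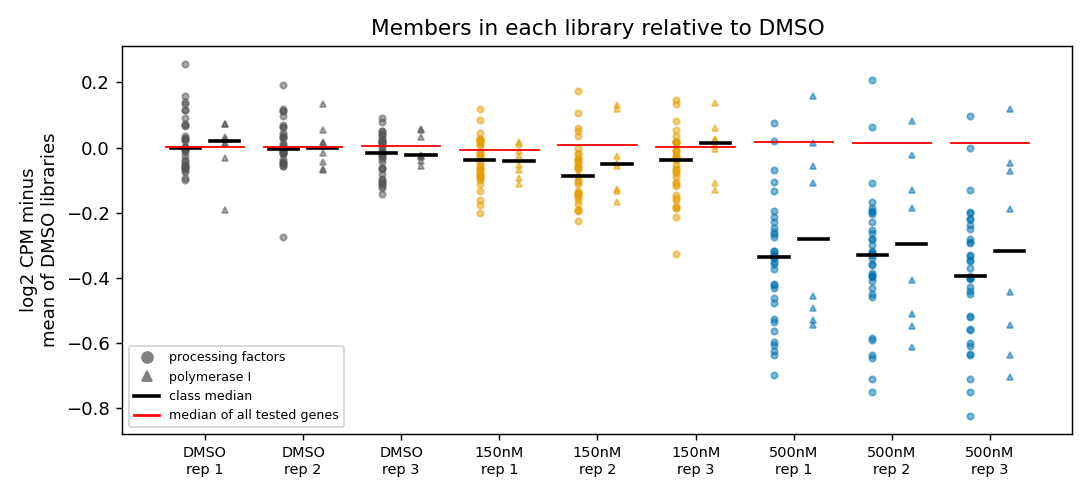
Log2 CPM minus the mean of the DMSO libraries (y axis) for each of the 43 genes in each of the 9 libraries; circles are processing factors, triangles polymerase I genes, black bars class medians and red bars the median of all tested genes. In the 3 libraries at 500 nM the processing medians are -0.34, -0.33 and -0.39 and the polymerase I medians -0.28, -0.30 and -0.32, while the red bars stay near 0.

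The classes could also be compared library by library. Summed over the class, processing factors had 6338 to 6667 CPM with 500 nM and 9136 to 9446 CPM with DMSO, and polymerase I genes 762 to 788 CPM with 500 nM and 956 to 976 CPM with DMSO. With 150 nM the sums were 8766 to 9329 CPM and 921 to 945 CPM. In neither class did the 500 nM sums overlap those of another group. Much of the processing sum comes from 2 genes, NCL (mean 2007 CPM with DMSO, 1188 CPM with 500 nM) and NPM1 (2129 and 1310 CPM). The processing sum therefore follows these 2 more than the other processing factors. The class medians in the libraries ran from -0.39 to -0.33 for processing factors and from -0.32 to -0.28 for polymerase I genes on the log2 scale relative to DMSO at 500 nM. The difference between the class medians was not tested.

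At 150 nM no gene of the 43 passed. edgeR called 0 of 43, and 5 had an unadjusted p under 0.05, as had 1572 of all 15089 tested genes, a like share; DESeq2 and limma-voom also called 0. Over all tested genes 1.27% were called, 0.318% lower and 0.954% higher. Fitted values were below DMSO for 36 of the 43, against 7701 of all 15089 tested genes. Genes read in the same libraries are not independent, so this count is a description with no test. The log2 changes of the 43 had a median of -0.05, a lowest of -0.13 (GNL2) and a highest of 0.07 (TAF1D). For 9 genes all 150 nM libraries lay below all DMSO libraries, which holds for 7.32% of all tested genes. TAF1D turned to -0.022 without DMSO replicate 1. The smallest edgeR adjusted p-values were 0.328 for GNL3, 0.34 for UBTF and 0.36 for GNL2, whose log2 changes were -0.13 ± 0.05, -0.12 ± 0.05 and -0.13 ± 0.06. With the GC trend removed, 1 gene, GNL3, was called lower (-0.14, adjusted p = 0.0253).

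The genes also fell between the 2 doses. At 500 nM relative to 150 nM, 34 of 43 fell, 30 processing factors and 4 polymerase I genes, and 0 rose (edgeR, adjusted p under 0.05), while 46.5% of all tested genes were called, 22.8% lower and 23.7% higher. The medians were -0.29 for processing factors and -0.21 for polymerase I genes. The comparison shares its 500 nM libraries with that against DMSO. NCL had a log2 change of -0.66 ± 0.05 between the doses and -0.76 ± 0.05 against DMSO, and POLR1B -0.52 ± 0.06 and -0.60 ± 0.06.

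Processing factors fell at 500 nM both with and without an E-box in the window. Of the 16 with an E-box in the window all 16 fell, with a median log2 change of -0.35, and of the 12 without one 10 fell, with a median of -0.35. E-boxes further than 250 bases before or 50 bases after the gene start were not searched for. The 7 polymerase I genes with a window, none with an E-box, had 4 that fell and a median of -0.44, against -0.27 for all 8, since POLR1E (-0.09) has no window here. The 8 polymerase I changes split into 4 that fell, at -0.60 to -0.44, and 4 not called, at -0.10 to 0.12. The median of -0.27 lies in the gap between them, where no gene lies. The order of the 2 classes by median thus depends on whether 1 such uncalled gene is counted, here POLR1E. Among all tested genes with an E-box, 1290 in all, 377 fell and 353 rose, and their median was 0.01, and the median of the 9175 without one was 0.02. The difference between the sets of members was not tested.

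**Figure D5:**
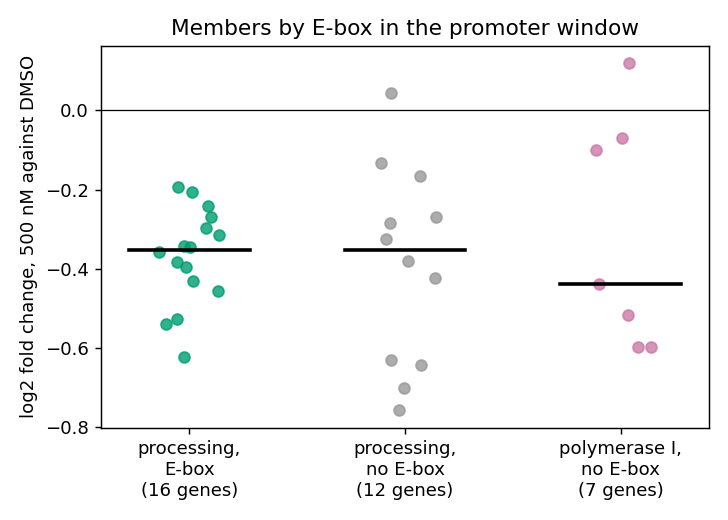
Log2 fold change at 500 nM JIB-04 against DMSO (y axis) for processing factors with an E-box in the promoter window (16), processing factors without (12) and polymerase I genes, none with one (7). Points are genes and black bars medians: -0.35, -0.35 and -0.44; POLR1E is not plotted, and with it the polymerase I median is -0.27.

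Other genes of the same pathway, from lists chosen with results of these data known, were read beside these members. Of 40 other small-subunit processome genes 28 fell and 0 rose at 500 nM, with a median log2 change of -0.26, led by IMP4 (-0.88, edgeR adjusted p = 3.64e-13). Of 40 other large-subunit assembly genes 25 fell and 0 rose, with a median of -0.22, MRTO4 (-0.57) and FTSJ3 (-0.55) among them. Of 7 other polymerase I genes 2 fell by edgeR, with a median of -0.15, a share near the 25.6% of all tested genes that fell. DESeq2 called 1 lower, and limma-voom called 2 lower and 1 higher. The edgeR calls were CD3EAP, now called POLR1G (-0.85, adjusted p = 2.92e-07) and TWISTNB, now called POLR1F (-0.16, adjusted p = 0.0475), subunits of the enzyme. Of 5 subunits that all nuclear RNA polymerases share, 4 fell, with a median of -0.38.

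Some member genes host snoRNAs in their introns. The table lists 23 such snoRNAs, of which 20 were tested, and 9 fell and 0 rose at 500 nM, with a median log2 change of -0.78. Over all tested genes 25.6% fell and 26.3% rose. A single host, TAF1D, held 5 of the 9 calls: SNORD6 (-1.27), SNORD5 (-0.80), SNORA8 (-0.75), SNORA18 (-0.74) and SNORA40 (-0.53). SNORA25 and SNORA32 of the same host were not called. At 150 nM edgeR, DESeq2 and limma-voom called 0, and 0 had an unadjusted p under 0.05 in edgeR. Small RNAs are poorly kept by such libraries and their reads cannot be told from those of the host's intron.

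Jumonji-domain proteins with roles at rDNA or ribosomes were measured too. PHF8, which activates rDNA transcription, rose (0.24, edgeR adjusted p = 0.00133) at 500 nM. KDM2A, which represses it, fell (-0.14, adjusted p = 0.0395), and C14orf169 (RIOX1), a hydroxylase of a ribosomal protein, fell (-0.19, adjusted p = 0.0346). KDM2B and MINA (RIOX2) were not called. In all, 3 of these 5 genes were called, 1 higher and 2 lower, where 52.0% of all tested genes were called. At 500 nM relative to 150 nM PHF8 rose and 0 of the 5 fell, so the falls of KDM2A and C14orf169 were not called there. Any link of these changes to each other or to rDNA was not tested.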

How the data were processed

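Total RNA of OCI-Ly1 cells, from which rRNA was removed (per the labels' protocols), was measured in 3 groups of 3 libraries, grouped by the sample titles. The authors deposited raw counts of reads per gene symbol as a table of 25370 symbols. Tools listed in the submitters' processing notes are featureCounts 1.4.6, Subread, Bowtie2 2.2.6 and TopHat2 2.0.14, with builds hg19 and mm10 and no role for either. The annotation and the strand setting of the counting are not given in the sources read. Counts that cannot be placed uniquely may be split or lost between near-identical genes.

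Genes were kept by filterByExpr (minimum count 10, 15 in total), and counts were scaled by TMM and fitted with edgeR 4.0.16 (quasi-likelihood, robust) in R 4.3.3 over all 9 libraries. Benjamini-Hochberg adjustment ran over 15089 genes, with calls under 0.05. A standard error is the unshrunk log2 change over the root of F. CPM are counts scaled to TMM-adjusted library size. In simulated data the fit recovered 60% of 1.25-fold changes at 500 nM and 62% at 150 nM, each relative to DMSO. Chi-square per degree of freedom between libraries of 1 group was 6.59 to 16.1, above sampling noise, and each library was kept as its own.

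Full values are given for every polymerase I gene, for up to 3 genes per role with the smallest adjusted p at 500 nM, for any called at 150 nM and for any called against its role group; values of RRP12, WDR74, PPAN and DKC1 and of genes outside the 43 were chosen after they were seen. Members and all lists were chosen with earlier results of these data known. Transcript length and GC content came from GENCODE v29 (GRCh38), found for 95.6% of tested genes, and promoter windows from RefSeq, GRCh38.p14; the table holds no coordinates. Alternatives were DESeq2 1.42.0, limma-voom (limma 3.58.1), DESeq2 size factors, total counts, no filter, 1 CPM in 3 libraries, a replicate block, only the 6 libraries compared, no 20 most abundant genes, GC or length trend removed, and each library left out. A marker gene is not reported here.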

Additional observations from a re-analysis of the deposited data

How the results depend on the processing

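At 500 nM relative to DMSO, 33 to 36 of the 43 genes were called, none higher, when 1 library was left out, and 32 to 34 at 500 nM relative to 150 nM. Scaling by total counts moved the median of all tested genes to 0.15 at 500 nM relative to DMSO and 0.13 relative to 150 nM. It gave class medians of -0.22 (processing) and -0.13 (polymerase I) against DMSO and -0.17 and -0.085 against 150 nM, with 29 genes lower and 3 higher against DMSO and 24 lower and 3 higher against 150 nM. It reversed POLR1C (0.070), POLR1D (0.038), POLR1E (0.045) and DKC1 (0.0054) against DMSO, and POLR1C (0.064), POLR1D (0.021), POLR1E (0.053) and DKC1 (0.0045) against 150 nM; the cause was not tested, beyond the shift of all genes that this scaling makes. With the length trend removed the medians were -0.39 and -0.31 against DMSO and -0.25 for polymerase I against 150 nM, and NOP10 lost its call (-0.07, adjusted p = 0.352); the cause was not tested. Leaving out 1 library moved the polymerase I median against DMSO between -0.30 and -0.26, and TAF1D at 150 nM between -0.022 and 0.14. With the GC trend removed, 1 processing factor was called at 150 nM (GNL3, -0.14) and RRP12 turned to -0.034 at 500 nM relative to 150 nM.

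Same-numbered libraries correlated at -0.05 to 0.10 in their deviations from the group means, and the main fit did not pair them. Between 150 nM and DMSO the same-numbered correlations were 0.0126 to 0.104, all above the different-numbered ones at -0.0829 to 0.00814. With the replicate number as a block the calls were 36 (32 processing, 4 polymerase I), 0 and 34 (30 and 4), the same counts as without it. Over all tested genes the block raised the calls from 7843 to 8133, from 192 to 308 and from 7021 to 7386. PPAN had the lowest level, at under 10 CPM in every library. Standard errors include the spread between libraries.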

Other observations

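Genes of the other nuclear RNA polymerases and of RNA decay were called in both directions at 500 nM relative to DMSO, as were all tested genes (26.3% higher and 25.6% lower). Of 19 polymerase III-specific genes 5 rose and 8 fell, with a median log2 change of -0.13, and polymerase II-specific genes were called higher in 2 and lower in 2 of 7 cases (median -0.09), by edgeR at an adjusted p under 0.05. Of 12 genes of the RNA exosome, which trims pre-rRNA, 3 rose and 5 fell, with a median of -0.10. EXOSC1 rose (0.52, adjusted p = 7.05e-06) and EXOSC7 fell (-0.51, adjusted p = 1.48e-06). Of 9 snoRNP assembly genes 5 fell and 1 rose, with a median of -0.24. RUVBL1, an ATPase of the assembly chaperone, fell (-0.62, adjusted p = 8.35e-10) and PIH1D1 of the same machinery rose (0.40, adjusted p = 3.62e-05). At 150 nM edgeR, DESeq2 and limma-voom called 0 genes of these 4 lists, and 2, both snoRNP assembly genes, had an unadjusted p under 0.05 in edgeR. Differences between these lists and the 43 genes were not tested.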
